A study of Mus musculus with 12 samples.

Results

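The 10 genes described here encode AP-1 and EGR transcription factors and related immediate early proteins, namely *Fos*, *Fosb*, *Fosl2*, *Jun*, *Junb*, *Jund*, *Egr1*, *Egr2*, *Ier2* and *Ier3*. They were picked by gene symbol from the 21859 protein-coding genes of the RNA-seq table, and all 10 were found. All 10 also passed the filter on low expression, which left 16932 genes to be tested. RNA was from undifferentiated spermatogonia, the testicular population that holds the stem cells, sorted as GFRa1+/KIT- cells from adult GFRa1-EGFP male mice of 8 to 10 weeks, which carry an EGFP reporter of *Gfra1*. Left testes had been fixed to the abdominal wall (cryptorchid, n = 7 libraries, labelled Cryptorchid), and right testes had stayed in the scrotum (control, n = 5 libraries, labelled WT). All testes were taken at day 10 after surgery, so the controls came from operated animals. Tubules were digested with collagenase for 9 min in both groups, but at 32 °C for control and 37 °C for cryptorchid testes. Effects of abdominal position and of digestion temperature therefore cannot be told apart for any gene below.

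Immediate early genes are transcribed within minutes of a growth factor, stress or mechanical stimulus, without new protein synthesis, because the factors that switch them on (SRF with its ternary complex partners, and CREB) are already bound or present. FOS and JUN proteins dimerize to form AP-1, which binds the TPA response element, whereas EGR proteins are zinc-finger factors that bind GC-rich sites. Most of these mRNAs decay quickly, and enzymatic dissociation of tissue is itself a known inducer.

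Each library held cDNA of about 200 cells, made by the Smart-seq2 method, which copies full-length mRNA and carries no molecular identifiers. Values are log2 RPM, where RPM is reads scaled to a fixed library total, and reads on genes numbered 3306771 to 24345368 per library. Libraries with replicate numbers 1 to 3 (3 control, 3 cryptorchid) were deeper, with 6800360 to 24345368 reads on genes, than those numbered 4 and above (2 control, 4 cryptorchid), with 3306771 to 5481947. Of all reads behind the RPM scale, genes of the table took 74.5 to 94.0% in replicates 1 to 3 and 94.8 to 99.9% in replicates 4 and above. The 12 listed markers of undifferentiated spermatogonia (*Gfra1*, *Zbtb16* and others) summed to 1322 to 2321 RPM per library, against 206 to 779 RPM for the 5 markers of differentiating spermatogonia. The 6 spermatid markers summed to 11.6 to 2594 RPM. They exceeded the undifferentiated sum in control replicates 4 (2181 against 1878 RPM) and 5 (2594 against 2017 RPM). In cryptorchid replicate 6 they did too, at 1668 against 1598 RPM, but not in the other libraries. No listed marker of any cell type was at 0 in every library. Which libraries came from the same mouse is not stated, and *P*-values measure the spread between libraries only. A fit that takes replicate numbers as pairs is given where the dependence on processing is described.

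Sequences upstream of 4 members are shown because these carry the elements through which immediate early genes are classically switched on. RefSeq windows (GRCm38.p6, 250 bases before to 50 bases after the transcription start) were given for 8 of the 10 members, not for *Egr1* or *Ier2*. The windows shown are those of *Fos* (chr12:85473640-85473939, plus strand), *Fosb* (chr7:19309996-19310295, minus strand), *Junb* (chr8:84978699-84978998, minus strand) and 1 of 5 *Egr2* starts, the first window in the table with a CArG box (chr10:67537316-67537615, plus strand). Each is written 5′ to 3′, with capitals marking TGACG (the core of the CREB site) or, in *Egr2*, the CArG box bound by SRF, searched on both strands.
Fos: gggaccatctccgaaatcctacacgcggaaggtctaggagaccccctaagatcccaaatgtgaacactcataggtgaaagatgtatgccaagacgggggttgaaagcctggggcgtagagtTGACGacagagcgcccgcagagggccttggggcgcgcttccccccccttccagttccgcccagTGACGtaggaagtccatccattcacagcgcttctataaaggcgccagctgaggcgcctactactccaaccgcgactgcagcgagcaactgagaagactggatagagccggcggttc
Fosb: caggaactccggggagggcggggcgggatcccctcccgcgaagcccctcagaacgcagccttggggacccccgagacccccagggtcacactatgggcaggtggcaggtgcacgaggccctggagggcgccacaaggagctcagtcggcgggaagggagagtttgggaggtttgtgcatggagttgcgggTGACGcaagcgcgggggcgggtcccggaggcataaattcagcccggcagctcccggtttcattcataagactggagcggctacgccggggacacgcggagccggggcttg
Junb: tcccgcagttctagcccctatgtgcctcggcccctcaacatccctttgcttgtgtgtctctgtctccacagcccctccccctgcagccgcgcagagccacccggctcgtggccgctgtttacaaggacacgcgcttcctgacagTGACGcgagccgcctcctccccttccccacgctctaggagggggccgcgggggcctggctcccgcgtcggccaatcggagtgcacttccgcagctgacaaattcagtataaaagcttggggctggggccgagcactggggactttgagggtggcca
Egr2: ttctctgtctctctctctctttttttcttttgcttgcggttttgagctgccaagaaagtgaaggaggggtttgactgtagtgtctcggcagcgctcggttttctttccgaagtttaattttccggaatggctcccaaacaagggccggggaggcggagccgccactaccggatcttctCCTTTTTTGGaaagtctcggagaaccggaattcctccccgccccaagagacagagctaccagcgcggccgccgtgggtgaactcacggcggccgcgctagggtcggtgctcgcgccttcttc

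In the windows shown, TGACG began at -129 and -66 of *Fos*, -60 of *Fosb* and -106 of *Junb*, counted from the start. It was present in 20.8% of all 32851 windows. A CArG box lay at -72 of the *Egr2* window shown and in 3 of the other 4 *Egr2* windows, and in 1.63% of all windows. Those 3 windows overlap one another and hold the same box. Each also held TGACG, for example at -111 and -55 of chr10:67537619-67537918. The TATA sequence TATAAA lay at -33 of *Fos* and at 1 of *Junb*, and was in 13.6% of all windows. None of the 8 members' windows held the AP-1 site TGAGTCA (5.20% of windows) or the EGR site GCGTGGGCG (0.612%). The EGR site variant GCGGGGGCG, in 2.91% of windows, was in *Fosb* and *Fosl2*, and the heat shock element core GAANNTTC, in 7.86%, was in *Jun* and *Fosl2*. The *Fosb* window held TGACG and GCGGGGGCG side by side without overlap. A match describes the letters in these windows, not binding.

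To examine whether cryptorchid spermatogonia differed from control in these genes, the 7 cryptorchid libraries were compared with the 5 control libraries. None of the 10 members passed the 2-fold and unadjusted *P* threshold of 0.05, which 5.92% of all genes tested passed, in either direction. None passed an adjusted *P* of 0.05, which 0.0118% of all genes passed, that is 2 genes. At an unadjusted *P* under 0.05 alone, 0 of 10 members passed in limma (9.48% of all genes), in voom on the recovered reads (10.8%) and in an exact rank sum test (9.63%), and at 10 genes a count of 0 is near these shares. The higher mean was in cryptorchid libraries for 6 of 10 members, near the share of 56.7% over all genes tested. The median log2 difference over the members was 0.37, against 0.10 over all genes tested. The count past the 2-fold threshold changed when 1 library was left out. Without control replicate 1, or without cryptorchid replicate 6, *Junb* and *Ier3* passed the 2-fold threshold, and without control replicate 2 *Junb* did.

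The samples of both groups spread widely in most genes. The plot of levels by library shows that in several, such as *Fos* and *Egr1*, the spread followed the replicate numbers. The contrast between replicates 1 to 3 and replicates 4 and above, from a limma fit with both group and replicate range, was added after the values had been seen. In it, 6 of 10 members (*Fos*, *Fosb*, *Jun*, *Junb*, *Egr1* and *Ier3*) were higher in replicates 1 to 3 at an adjusted *P* under 0.05, and none was lower. Over all genes, 0.555% were higher and 5.37% were lower. The median difference was 2.47 over the members and -0.31 over all genes, on the log2 scale. Centring each library on its median gene, which takes out that shift, put the members' median at 2.89 and the count at 7, with *Egr2* added. *Fos*, *Fosb* and *Egr1* passed in all 15 alternative fits, whereas the count was 3 without control replicate 4 or 5 or cryptorchid replicate 1, 6 or 7. In *Fos*, *Fosb*, *Jun* and *Egr1*, every library of replicates 1 to 3 lay above every one of replicates 4 and above, which held for 0.378% of all genes.

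**Figure D1:**
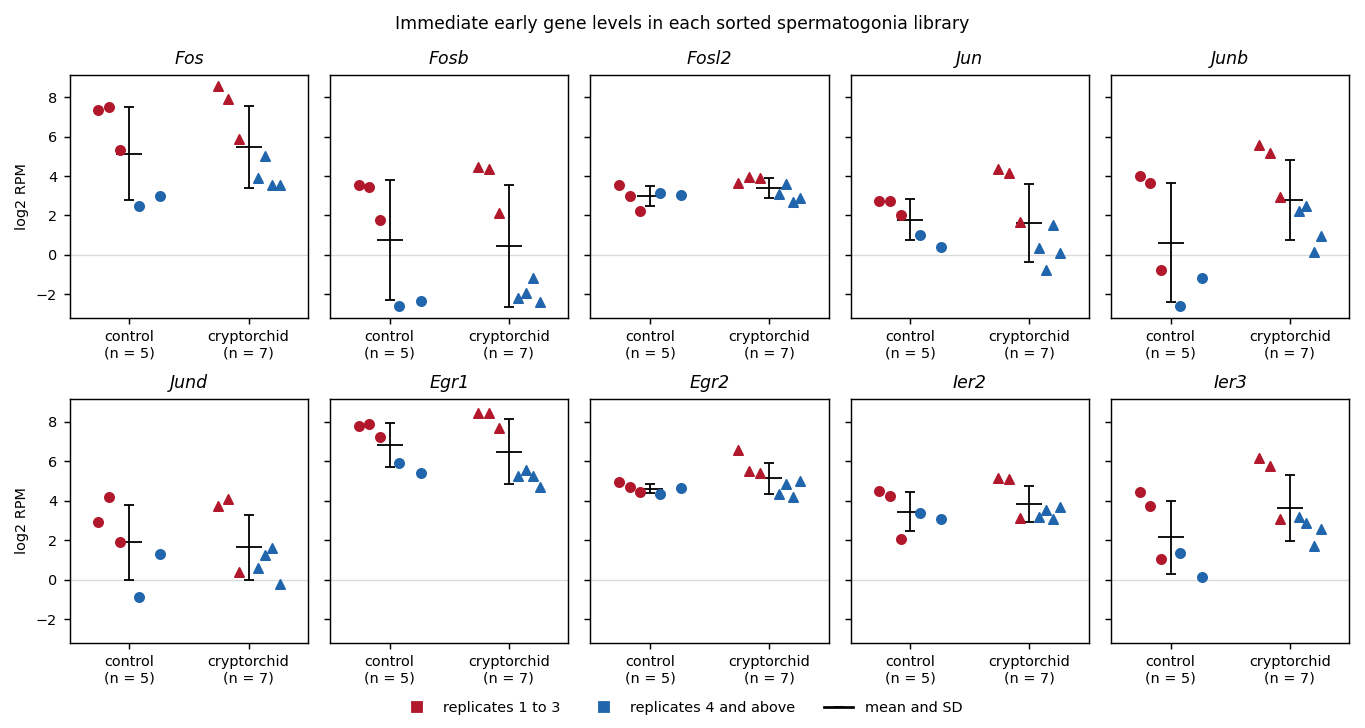
Log2 RPM (y axis) of each of the 10 genes in the 5 control (circles) and 7 cryptorchid (triangles) libraries, with replicates 1 to 3 in red, replicates 4 and above in blue, and the mean and SD of each group in black. In *Fos*, *Fosb*, *Jun* and *Egr1* all red points lie above all blue points, while control and cryptorchid overlap in every gene.

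Among the FOS family, *Fos* (chr12:85473890-85477273) is the prototype partner of JUN in AP-1. Its log2 RPM in control replicates 1 to 5 was 7.37, 7.50, 5.32, 2.50 and 3.0. In cryptorchid replicates 1 to 3 it was 8.59, 7.93 and 5.89, and in replicates 4 to 7 it was 3.92, 5.02, 3.57 and 3.53. Both groups thus spanned a high and a low level, and they overlapped. The reads behind these values were 31 to 5196 in control and 54 to 8592 in cryptorchid libraries. The cryptorchid minus control difference was 0.36 (SE 0.99, adjusted *P* = 0.93). *Fos* was 3.68 higher on the log2 scale in replicates 1 to 3 (SE 0.46, adjusted *P* = 0.000688), which is 12.8-fold.

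*Fosb* (chr7:19302696-19310051, minus strand) encodes a FOS relative known from stimulated neurons and bone. It had 287, 312 and 35 reads in control replicates 1 to 3 and 0 reads in control replicates 4 and 5. It had 498, 227 and 37 reads in cryptorchid replicates 1 to 3, and 1, 0, 2 and 0 reads in replicates 4 to 7. *Fosb* was therefore near the limit of detection in all libraries of replicates 4 and above, whichever testis they came from. Pooled, 1396 reads in replicates 1 to 3 (13.3 RPM) stood against 3 reads in replicates 4 and above (0.110 RPM), a ratio of 121. The exact 95% interval of 41.2 to 586 takes reads as independent and covers counting error only. In limma the contrast was 5.50 on the log2 scale (SE 0.70, adjusted *P* = 0.000688). The cryptorchid minus control difference of -0.30 (SE 1.48, adjusted *P* = 0.96) turned to 0.64 with a term for the replicate range.

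*Fosl2* (chr5:32135801-32157842), which encodes the more slowly induced FRA-2, stayed within a narrow range. It was at 3.54, 2.98, 2.20, 3.16 and 3.03 log2 RPM in control replicates 1 to 5, and at 2.67, 3.59 and 3.93 (lowest, median and highest) in the 7 cryptorchid libraries. No library stood apart, and replicates 1 to 3 exceeded replicates 4 and above by 0.37 (SE 0.41, adjusted *P* = 0.63). The cryptorchid minus control difference was 0.41 (SE 0.43, adjusted *P* = 0.79).

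Among the JUN family, *Jun* (chr4:95049034-95052222, minus strand) encodes the AP-1 subunit that can also pair with itself. It was at 2.73, 2.75, 2.01, 1.0 and 0.41 log2 RPM in control replicates 1 to 5, and at -0.77, 1.51 and 4.37 (lowest, median and highest) in cryptorchid libraries. Cryptorchid libraries included both the lowest and the highest level, and the difference was -0.15 (SE 0.90, adjusted *P* = 0.97). *Jun* was 2.56 higher in replicates 1 to 3 (SE 0.66, adjusted *P* = 0.034).

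*Junb* (chr8:84974484-84978718, minus strand), a JUN protein with weaker activation than c-Jun in many settings, had the largest mean difference between groups of the 10 genes. It was at 4.03, 3.64, -0.77, -2.61 and -1.17 log2 RPM in control replicates 1 to 5, from 397, 359, 6, 0 and 2 reads. In cryptorchid replicates 1 to 7 it was at 5.56, 5.18, 2.95, 2.25, 2.48, 0.14 and 0.95, from 1052, 405, 65, 22, 19, 5 and 9 reads. The groups overlapped, because the control libraries 1 and 2 lay above 5 of the 7 cryptorchid libraries, and the other 3 control libraries lay below all 7. The difference was 2.16 (SE 1.19, 95% interval -0.34 to 4.66), with an unadjusted *P* of 0.086 and an adjusted *P* of 0.59. Between the replicate ranges it was 3.56 (SE 0.84, adjusted *P* = 0.0235). Of the exons of *Junb*, 173 bases (7.52%) overlap *Prdx2* on the other strand, and reads there cannot be assigned to 1 of the 2 genes. *Prdx2* differed by -0.53 between groups and by -0.63 between the replicate ranges, the opposite direction in both cases.

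*Jund* (chr8:70698949-70700616), the JUN gene with the steadiest expression in most tissues, was at 2.90, 4.20, 1.93, -0.87 and 1.28 log2 RPM in control replicates 1 to 5. In cryptorchid libraries it was at -0.22, 1.23 and 4.08 (lowest, median and highest). The groups overlapped fully, with a difference of -0.26 (SE 0.93, adjusted *P* = 0.95). The contrast of 2.29 between replicate ranges missed the threshold (SE 0.75, adjusted *P* = 0.077). The antisense gene *Gm11175* covers 52.6% of the *Jund* exons and *Junos* covers 7.28% of the *Jun* exons. Both levels are uncertain because of this overlap, as is that of *Junb*.

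Among the EGR family, *Egr1* (chr18:34859823-34864984) encodes a zinc-finger factor induced by growth factors. Control replicates 1 to 5 were at 7.80, 7.87, 7.22, 5.93 and 5.41 log2 RPM, and cryptorchid replicates 1 to 7 at 8.45, 8.45, 7.69, 5.25, 5.54, 5.28 and 4.71. Within each replicate range the libraries were close together, with an SD of 0.47 in replicates 1 to 3 and 0.40 in replicates 4 and above. *Egr1* had the lowest adjusted *P* of the members between the ranges, 2.57 higher in replicates 1 to 3 (SE 0.27, adjusted *P* = 0.000361), or 5.95-fold. Its difference between groups was -0.37 (SE 0.67, adjusted *P* = 0.90).

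*Egr2* (chr10:67535475-67542188), a relative of *Egr1* known for its role in myelinating Schwann cells, was at 4.95, 4.69, 4.44, 4.35 and 4.66 log2 RPM in control replicates 1 to 5. Cryptorchid libraries were at 4.21, 5.0 and 6.58 (lowest, median and highest). Controls were thus within a narrow band. Of the 7 cryptorchid libraries, 4 lay above it, with replicate 1 the highest, while replicates 4 (4.34) and 6 (4.21) lay below it. The difference between groups was 0.52 (SE 0.37, adjusted *P* = 0.69), and between replicate ranges 0.80 (SE 0.31, adjusted *P* = 0.13).

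Of the IER genes, *Ier2* (chr8:84661331-84662852, minus strand) encodes a short-lived nuclear protein. It was at 4.52, 4.23, 2.04, 3.40 and 3.07 log2 RPM in control replicates 1 to 5 and at 3.06, 3.55 and 5.18 (lowest, median and highest) in cryptorchid libraries. Replicates 1 and 2 of both groups were highest, but replicate 3 of both lay among or below replicates 4 and above. Its difference was 0.39 between groups (SE 0.53, adjusted *P* = 0.85) and 0.81 between ranges (SE 0.49, adjusted *P* = 0.34).

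*Ier3* (chr17:35821684-35822923) encodes a small protein that modulates ERK signalling and cell survival. It was at 4.46, 3.75, 1.04, 1.35 and 0.15 log2 RPM in control replicates 1 to 5, from 5 to 536 reads. In cryptorchid replicates 1 to 7 it was at 6.17, 5.77, 3.10, 3.18, 2.87, 1.72 and 2.58, from 15 to 1606 reads. As in *Junb*, control replicates 1 and 2 lay among the cryptorchid libraries and the other 3 controls lay below all of them. The difference was 1.48 (SE 0.86, 95% interval -0.33 to 3.29), with an unadjusted *P* of 0.103 and an adjusted *P* of 0.61. Between replicate ranges it was 2.39 (SE 0.65, adjusted *P* = 0.039).

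**Figure D2:**
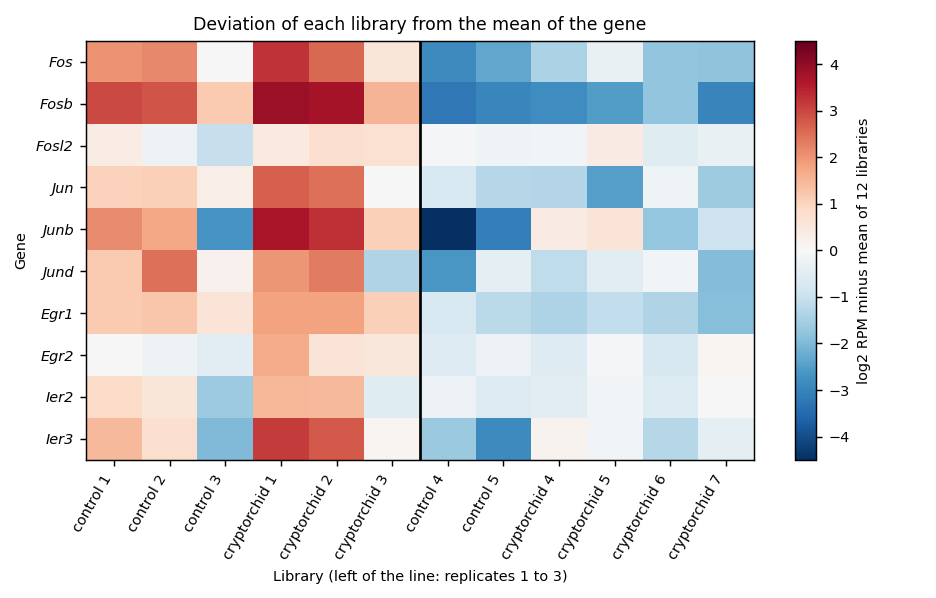
Log2 RPM of each gene (rows) in each library (columns) minus the mean of that gene over the 12 libraries, from -4.50 (blue) to 3.89 (red), with replicates 1 to 3 left of the line. Replicates 1 and 2 of both groups are red in most rows, *Fosl2* is pale throughout, and *Junb* and *Ier3* are lowest in control replicates 3, 4 and 5.

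The summed level shows the same split. The 10 genes together took 234 to 530 RPM in control and 359 to 1055 RPM in cryptorchid libraries of replicates 1 to 3. In replicates 4 and above they took 97.7 to 112 RPM in control and 94.7 to 148 RPM in cryptorchid libraries. The FOS genes ran from 47.9 to 420 RPM in replicates 1 to 3 and from 14.6 to 44.5 RPM in replicates 4 and above. EGR genes ran from 171 to 445 RPM and from 57.3 to 81.5 RPM, respectively, so these 2 families did not overlap between the ranges. JUN genes (8.42 to 81.1 and 2.55 to 8.49 RPM) and IER genes (6.17 to 108 and 9.53 to 19.0 RPM) overlapped between the ranges, and control replicate 3 was the lowest library of replicates 1 to 3 in both. In bulk samples, fewer cells with a transcript and less transcript per cell cannot be told apart.

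Other features of the libraries moved with the replicate range. Among low recovered read counts, even numbers made up 53.2 to 60.8% in replicates 1 to 3 and 48.2 to 50.5% in replicates 4 and above. Besides the depth and the share of reads on genes given above, the 5 markers of differentiating spermatogonia summed to 206 to 560 RPM in replicates 1 to 3 and 567 to 779 RPM in replicates 4 and above. The 6 spermatid markers summed to 11.6 to 1118 RPM and 93.1 to 2594 RPM. Of these 2 lists, 2 of 5 and 2 of 6 markers passed an adjusted *P* of 0.05, all lower in replicates 1 to 3. Sertoli cell markers summed to 13.8 to 43.1 RPM (median 20.8) and 31.1 to 53.6 RPM (median 46.2), and 1 of the 7 tested, *Rhox5*, passed, lower in replicates 1 to 3 (-2.37, adjusted *P* = 0.034). Lymphocyte markers summed to 2.43 to 18.6 RPM and 0 to 4.98 RPM, and 1 of the 2 tested, *Cd79a*, passed, higher in replicates 1 to 3 as were the 6 members (3.51, adjusted *P* = 0.022). Sums also overlapped for macrophages (3.62 to 37 and 13.3 to 32.2 RPM), endothelial cells (19.5 to 47.5 and 10.0 to 44.2 RPM), Leydig cells (6.18 to 47.8 and 8.64 to 35.3 RPM) and peritubular myoid cells (0.714 to 16.5 and 1.46 to 14.5 RPM). With a common floor for all libraries, set at that of the shallowest, the same 6 members passed. The part of the other features in the contrast was not tested, and the instruments (HiSeq X or NovaSeq X Plus) are not stated per library.

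Since the replicate ranges hold unequal shares of control and cryptorchid libraries, the comparison of groups was repeated with a term for the range. All 10 members then had the higher estimate in cryptorchid libraries, as did 53.1% of all genes tested. The median was 0.59 over the members, against 0.04 over all genes tested. The members varied together over the libraries (median r with the other members 0.57 to 0.87), so these are not 10 separate observations. *Junb* (2.77, SE 0.85) and *Ier3* (1.89, SE 0.66) passed the 2-fold and unadjusted *P* threshold, with *P* of 0.0044 and 0.010. These are 2 of 10 members, against 3.43% of all genes higher by this rule. *Fos* (0.99, SE 0.47) had an unadjusted *P* of 0.0498 and fell short of 2-fold at 1.99-fold. No member passed an adjusted *P* of 0.05, which 0.272% of all genes (46 genes) passed, and the adjusted *P*-values of *Junb* and *Ier3* were 0.20 and 0.27. *Junb* and *Ier3* also passed with the range term when any 1 library was left out, and *Fos* passed too without control replicate 1 or 2 or cryptorchid replicate 3, 6 or 7.

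**Figure D3:**
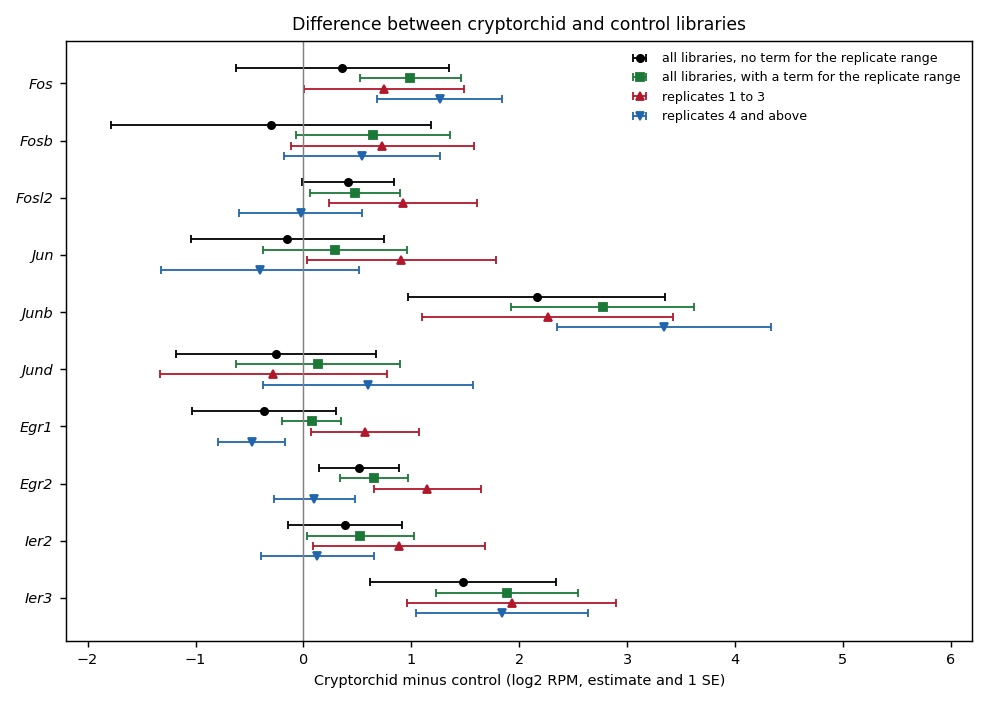
Cryptorchid minus control difference in log2 RPM (x axis, estimate with 1 SE) of each gene from 4 limma fits: all 12 libraries without and with a term for the replicate range, replicates 1 to 3 alone, and replicates 4 and above alone. *Fos*, *Junb*, *Egr2*, *Ier2* and *Ier3* lie to the right of 0 in all 4 fits. The SE of *Fos* is 0.99 without and 0.47 with the range term.

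Within replicates 1 to 3, *Junb* was 2.26 and *Ier3* 1.93 higher in cryptorchid libraries, and *Fos*, *Fosb*, *Jun*, *Egr1* and *Ier2* were 0.57 to 0.91 higher. The 3 cryptorchid libraries lay above all 3 control libraries in *Fosl2* (difference 0.92) and *Egr2* (1.15), a pattern found in 4.69% of all genes. *Jund* was lower in cryptorchid libraries there, at -0.28. Within replicates 4 and above, the 4 cryptorchid libraries lay above both control libraries in *Fos* (1.26), *Junb* (3.34) and *Ier3* (1.84), a pattern found in 14.1% of all genes. Those 2 controls had 0 and 2 reads of *Junb*. *Jun* (-0.40), *Egr1* (-0.48) and *Fosl2* (-0.03) were lower there. In limma within each range, *Egr2* passed the 2-fold and unadjusted *P* threshold in replicates 1 to 3 (adjusted *P* = 0.99999), as did 3.73% of all genes. In replicates 4 and above *Junb* (adjusted *P* = 0.14) and *Ier3* (adjusted *P* = 0.28) passed, as did 7.91% of all genes. These within-range orders cannot reach a two-sided exact *P* below 0.10 in replicates 1 to 3 or below 0.133 in replicates 4 and above.

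An exact rank sum test that permuted group labels within the ranges gave a two-sided exact *P* of 0.0533 for each of *Fos*, *Junb* and *Ier3* (adjusted *P* = 0.41), where the smallest of the 300 splits would give 0.00667. Whether the difference between groups itself varied with the range was tested by an interaction term, and 0 of 10 members and 0 of 16932 genes passed an adjusted *P* of 0.05. At an unadjusted *P* under 0.05 there were 0 members and 269 genes. *Egr1* came nearest, with a group difference 1.05 larger in replicates 1 to 3 than in replicates 4 and above (SE 0.51, unadjusted *P* = 0.057).

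Other measures were also compared between the groups. The 6 spermatid markers summed to 483 to 2594 RPM in control and 11.6 to 1668 RPM in cryptorchid libraries, and 0 of 6 had the higher mean in cryptorchid. Macrophage markers summed to 3.62 to 25.2 and 11.2 to 37 RPM, and lymphocyte markers to 0.886 to 5.0 and 0 to 18.6 RPM. Endothelial markers summed to 10.0 to 29.2 RPM in control and 18.4 to 47.5 RPM in cryptorchid libraries. Control and cryptorchid ranges overlapped in each of these sums over all 12 libraries. Within replicates 1 to 3, spermatid sums were 483 to 1118 RPM in control and 11.6 to 280 RPM in cryptorchid libraries. Within replicates 4 and above they were 2181 to 2594 and 93.1 to 1668 RPM, so neither range showed overlap. Endothelial sums did not overlap in replicates 1 to 3 (19.5 to 29.2 and 31.5 to 47.5 RPM), but did in replicates 4 and above. Macrophage and lymphocyte sums overlapped in both ranges. By the 2-fold and unadjusted *P* rule of limma, 2 of 5 endothelial, 1 of 6 macrophage and 0 of 2 lymphocyte markers tested were higher in cryptorchid libraries. Of the 6 spermatid markers 3 were lower by that rule, which 5.92% of all genes passed in either direction. In limma with the range term, 5 of 6 were lower by it, as were 635 of all 16932 genes tested. *Prm2* then passed an adjusted *P* of 0.05 (-4.07, adjusted *P* = 0.032). Of the 12 heat shock genes, 10 had the higher mean in cryptorchid libraries, as did 56.7% of all genes tested. Only *Hsph1*, an HSP110 chaperone, passed the 2-fold and unadjusted *P* threshold (1.20, adjusted *P* = 0.13). With the range term *Hsph1* passed an adjusted *P* of 0.05 (1.17, adjusted *P* = 0.0495). With 1 library left out as well, its adjusted *P* was 0.033 to 0.27 and passed in 3 of 12 fits, those without control replicate 3 or cryptorchid replicate 2 or 3. The part of these in the differences of the members was not tested.

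Levels were next compared between genes per kilobase of exon. Over the 12 libraries the order of mean log2 RPM per kb was *Egr1* (4.47), *Fos* (4.11), *Egr2* (3.15), *Ier2* (3.07), *Ier3* (2.83), *Jund* (1.0), *Junb* (0.68), *Jun* (0.02), *Fosl2* (-0.05) and *Fosb* (-2.05). Of the steps between neighbours in this order, only that from *Ier3* to *Jund* (1.83) exceeded the SD of the difference (1.47), and *Ier3* was higher in 10 of 12 libraries. In replicates 1 to 3, *Fos* (5.87) and *Egr1* (5.75) led, and did not differ beyond their spread. In replicates 4 and above, *Egr1* (3.19) led, *Fos* (2.35) lay below *Egr2* and *Ier2*, and *Fosb* was last at -4.75, below *Jun* in 6 of 6 libraries. The steps from *Egr1* to *Egr2* (0.38), *Egr2* to *Ier2* (0.09) and *Ier2* to *Fos* (0.36) there did not exceed the SD of the difference.

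Genes with the most similar pattern were sought among 11406 genes with a log2 mean RPM above 3, by Pearson's r with the mean log2 RPM of the 10 members over 12 libraries, after group means were taken out. Among the 5 highest were *Sqstm1* (r = 0.98), *Crtc2* (0.98), *Mfsd2a* (0.96) and *Egr4* (0.96). They encode an autophagy receptor, a CREB coactivator, a lipid transporter and another EGR factor. Their contrast between replicate ranges was 0.96 (*Crtc2*) to 2.28 (*Egr4*) on the log2 scale, which is a description, since they were chosen for following the members over these libraries. Members' own r with the same mean, which includes them, ran from 0.57 (*Fosl2*) to 0.98 (*Fos*). The libraries share depth and replicate range, so these correlations are descriptions.

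Wider lists of the pathway were read in the same fits. Of 15 other AP-1, ATF and EGR family genes, *Batf*, an AP-1 partner of JUN in lymphocytes, was higher in cryptorchid libraries by the 2-fold and unadjusted *P* rule (2.13, SE 0.55, adjusted *P* = 0.22). *Nab2*, a corepressor of EGR factors (-1.08, adjusted *P* = 0.35), and *Mafk*, a small MAF (-1.22, adjusted *P* = 0.49), were lower by that rule. Over all genes tested, 5.92% passed it in either direction. Between replicate ranges, 3 of the 15 were higher in replicates 1 to 3 at an adjusted *P* under 0.05, namely the stress factor *Atf3* (2.73, adjusted *P* = 0.017), *Egr4* (2.28) and *Mafk* (1.51). No gene of that list was lower there.

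Of 38 other immediate early genes, 34 passed the filter, and the median difference between groups was 0.23. By the 2-fold and unadjusted *P* rule, 2 were higher in cryptorchid libraries, *Nfil3*, a basic leucine zipper repressor (1.87, adjusted *P* = 0.47), and *Gadd45b*, a stress-induced gene (1.84, adjusted *P* = 0.48). The clock gene *Per1* was lower (-1.25, adjusted *P* = 0.43). Together these were 3 of the 34 (8.82%), near the share of 5.92% over all genes tested. Between replicate ranges 4 of 34 passed, all higher in replicates 1 to 3. These were *Zfp36*, whose product speeds decay of AU-rich mRNAs (1.97, SE 0.30, adjusted *P* = 0.0025), its relative *Zfp36l1* (1.57), the orphan nuclear receptor *Nr4a1* (1.22) and the cytokine signalling inhibitor *Socs3* (1.85). The median contrast over the 34 was 0.53, between those of the members (2.47) and of all genes (-0.31).

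**Figure D4:**
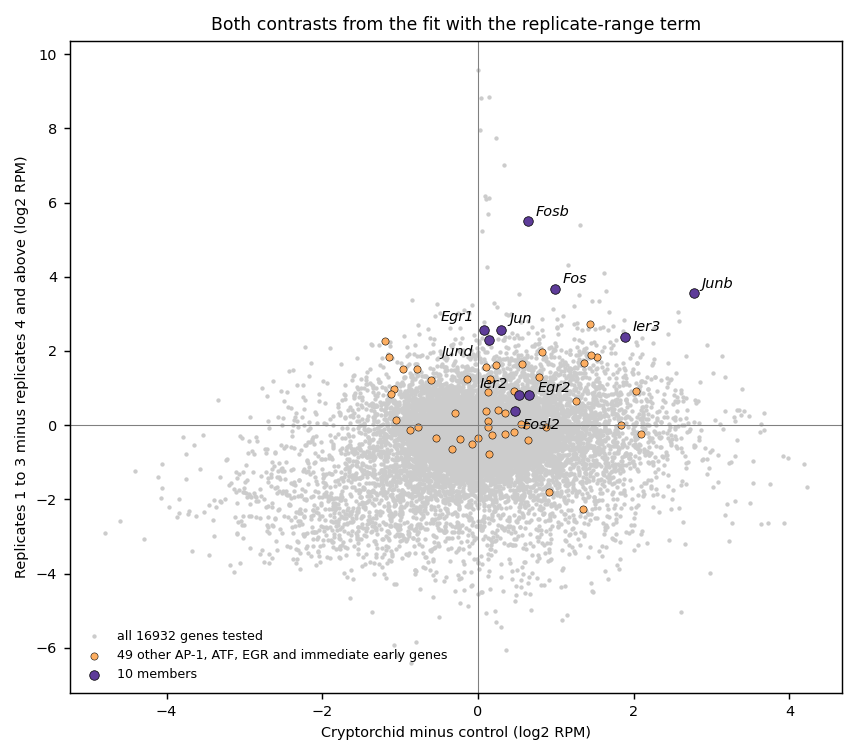
Cryptorchid minus control difference (x axis) against replicates 1 to 3 minus replicates 4 and above (y axis), both in log2 RPM from the fit with group and range, for all 16932 genes tested (grey), 49 other AP-1, ATF, EGR and immediate early genes (orange) and the 10 members (purple). All 10 members lie above 0 on both axes, *Fosb* (5.50) and *Fos* (3.68) are highest on the y axis, and *Junb* (2.77) is farthest right.

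Upstream of these genes, 33 kinases and transcription factors that act on them were tested. Only *Map2k6*, which activates p38, passed the 2-fold and unadjusted *P* rule (1.59, adjusted *P* = 0.52), which 5.92% of all genes tested passed. Between ranges only the cAMP-responsive factor *Crem* passed, lower in replicates 1 to 3 (-1.17, adjusted *P* = 0.027). Of 16 feedback inhibitors of MAP kinase signalling, the phosphatase *Dusp4* was lower in cryptorchid libraries by that rule (-1.20, adjusted *P* = 0.51). Between ranges the phosphatases *Dusp5* (1.60, adjusted *P* = 0.0073) and *Dusp1* (1.51, adjusted *P* = 0.026) were higher in replicates 1 to 3 and *Spry4* was lower (-1.49, adjusted *P* = 0.039). Of 16 textbook targets of AP-1 and EGR1, 10 passed the filter and 0 passed the 2-fold and unadjusted *P* rule. In limma 0 of these 10 had an unadjusted *P* under 0.05. *Timp1*, a metalloproteinase inhibitor, was lower in replicates 1 to 3 (-2.29, adjusted *P* = 0.036), opposite to *Fos* and *Fosb*.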

How the data were processed

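RNA-seq values of 12 libraries, 5 control and 7 cryptorchid, were used as deposited. Per the study's methods and the submitters' processing notes, reads were trimmed by Trim Galore! 0.6.6, aligned with HISAT2 2.1.0 (mm10) and quantified by gene with SeqMonk, and the authors deposited log2 RPM. Strand of counting and duplicate removal are not given for RNA-seq in the sources used here. Groups and replicate numbers were read from the sample labels. The lowest value of a library was read as 0.9 reads, and with that scale 100% of values under 1000 reads lay within 0.05 of a whole number, so the reads given are recovered ones. Smart-seq2 has no molecular identifiers, so intervals on reads cover counting error only. Genes with a log2 mean RPM above -1 were tested with limma 3.58.1 (lmFit, eBayes with trend, R 4.3.3), two-sided, with Benjamini-Hochberg adjustment over all 16932 genes. Calls used the thresholds of the study, 2-fold and an unadjusted *P* of 0.05, or an adjusted *P* of 0.05. The authors called genes with a count model on their counts. As the deposited values are log2, limma was used, with voom on the recovered reads as an alternative. The script was tested on simulated data, where an adjusted *P* of 0.05 in limma recovered 70.5% of 200 genes changed by 3 on the log2 scale. Of the calls, 4.73% were false. The simulated libraries varied independently and had no split by replicate range, unlike these data. Coordinates, exon lengths and overlaps are from GENCODE (GRCm38, the same assembly as mm10), and promoter windows from RefSeq.

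The members and gene lists were chosen with earlier results of these data known. All 10 members are named. Of each list, up to 4 genes with the smallest unadjusted *P* past the 2-fold threshold are named, or, where fewer than 2 qualified, also the 2 of highest mean RPM, and from the added contrast between replicate ranges the genes past the adjusted threshold. Alternatives covered the filter, the pseudocount, centring, quantile normalization, array weights, voom on recovered reads, exact tests, the replicate block, the replicate range and each library left out. Some genes that these rules select are not reported here. ChIP-seq data of the series were not analysed here.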

Additional observations from a re-analysis of the deposited data

How the results depend on the processing

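The count of members past 2-fold and an unadjusted *P* of 0.05, which was 0, became 2 with array weights and with a term for the replicate range (also 2 with median centring or log2(RPM + 1) added to it). It was 1 in replicates 1 to 3 alone (*Egr2*) and 2 in replicates 4 and above alone (*Junb* and *Ier3*), 0 to 2 with 1 library left out, and 2 to 3 with 1 library left out and the range term. A replicate block (numbers 1 to 5 as pairs) gave 3 members by both thresholds, *Fos* (1.14, adjusted *P* = 0.021), *Junb* (3.06, adjusted *P* = 0.019) and *Ier3* (2.07, adjusted *P* = 0.014) in limma. The deviations of same-numbered libraries correlated at 0.25 to 0.41 for numbers 1 to 4, whose libraries matched each other best. However, they correlated at 0.049 for number 5, whose libraries did not match each other best. As no label ties numbers to mice either, the numbers were not taken as pairs in the main fits. Over all genes, the 1002 past 2-fold became 1585 with array weights, 1678 with the replicate block and 632 in replicates 1 to 3 alone, and were 1340 in replicates 4 and above alone. The 2 past an adjusted *P* of 0.05 became 5 with log2(RPM + 1), 4 with median centring, 4 with quantile normalization, 476 with array weights, 949 with the replicate block, 46 with the range term (49 and 82 with centring or log2(RPM + 1) added) and 0 in either range alone. With 1 library left out they were 0 to 9, and 1 to 142 with the range term. The 6 members past the threshold between ranges became 3 to 7 with 1 library left out.

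Uncalled differences changed sign as follows. *Fosb* (-0.30) was 0.60 with the replicate block, 0.64 with the range term (0.65 centred, 0.45 with log2(RPM + 1)), 0.73 in replicates 1 to 3 and 0.54 in replicates 4 and above, and -1.15 to 0.40 or, with the range term, 0.36 to 0.99 with 1 library left out. *Jun* (-0.15) was 0.026 with log2(RPM + 1), 0.19 with voom, 0.18 with the replicate block, 0.29 with the range term (0.29 centred, 0.36 with log2(RPM + 1)), 0.91 in replicates 1 to 3, and -0.60 to 0.25 or -0.01 to 0.63 with 1 library left out. *Jund* (-0.26) was 0.021 with array weights, 0.12 with the replicate block, 0.14 with the range term (0.14 centred, 0.064 with log2(RPM + 1)), 0.60 in replicates 4 and above, and -0.95 to 0.32 or -0.35 to 0.74 with 1 library left out. *Egr1* (-0.37) was 0.23 with the replicate block, 0.076 with the range term (0.079 centred, 0.080 with log2(RPM + 1)), 0.57 in replicates 1 to 3, and -0.72 to -0.07 or -0.08 to 0.30 with 1 library left out. *Fosl2* (0.41) was -0.027 in replicates 4 and above, and *Fos* (0.36) was -0.30 to 0.95 with 1 library left out, or 0.68 to 1.39 with the range term as well. *Junb*, *Egr2*, *Ier2* and *Ier3* kept their direction in all 41 alternatives each. Fits within 1 range have fewer libraries, and otherwise the cause was not tested. The range term with centring, log2(RPM + 1) or 1 library left out, and the contrast between ranges, were chosen after the data had been seen. At 5 to 22 reads in most shallow libraries, *Junb* levels there carry wide counting error.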

Other observations

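Genes that respond to GDNF, the Sertoli cell factor that acts on GFRa1 and maintains spermatogonial stem cells, were read from a list of 7. Of these, *Cxcr4*, a chemokine receptor, passed the 2-fold and unadjusted *P* rule of limma, higher in cryptorchid libraries (2.42, SE 0.80, adjusted *P* = 0.36), from 2 to 80 reads per library. The transcription factor genes *Etv5* (-0.32, adjusted *P* = 0.70) and *Bcl6b* (-0.49, adjusted *P* = 0.77) did not pass. Between replicate ranges, 0 of the 7 passed an adjusted *P* of 0.05 and the median contrast was 0.04, against 2.47 over the AP-1 and EGR members.

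Heat shock genes, whose products refold proteins after heat, were read from a list of 12. Their summed level was 1858 to 5853 RPM in control and 2533 to 8048 RPM in cryptorchid libraries. In replicates 4 and above the 2 controls (4464 and 4575 RPM) lay below all 4 cryptorchid libraries (6546 to 8048 RPM). Of single genes tested, 14.1% showed that order. In replicates 1 to 3 the groups overlapped, at 1858 to 5853 RPM in control and 2533 to 7767 RPM in cryptorchid libraries. *Hsph1* was at 6.29 ± 0.21 log2 RPM in control (SD, n = 5) and 7.49 ± 0.40 in cryptorchid libraries (SD, n = 7). The abundant *Hsp90aa1* (0.87, adjusted *P* = 0.54) and *Hsp90ab1* (0.32, adjusted *P* = 0.86) did not pass. Of these genes, 2 had the higher mean in replicates 1 to 3 and 0 passed an adjusted *P* of 0.05 between ranges, in limma. Digestion temperature and testis position cannot be told apart here either.

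Among the lists of kinases, inhibitors and targets, the abundant *Mrtfb* (-0.32, adjusted *P* = 0.84) did not pass between groups. Nor did the feedback inhibitors *Spred2* (0.09, adjusted *P* = 0.95) and *Dusp6* (-0.13, adjusted *P* = 0.92), or the targets *Hmox1* (0.11, adjusted *P* = 0.93) and *Ccnd1* (0.32, adjusted *P* = 0.79).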
